A study of Mus musculus with 6 samples.

Results

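The genes described here build the immunoproteasome and load its peptides onto MHC class I. They are 10 members named by their known roles, among 36870 gene names on the array: B2m, Tap1, Tap2, Tapbp, Psmb8, Psmb9, Psmb10, Psme1, Psme2 and Nlrc5. Every probe whose gene name in the array annotation is one of these was taken, whatever its value. This gave 15 probes of 9 members, and no probe on the array carries the name Psme2. Gene expression was measured in the whole kidney of female mice at 6 months of age, kept free of specific pathogens, and each array holds the RNA of 1 animal. The control group was the MRL/MpJ strain (MRL, 3 mice), and the diseased group was MRL/MpJ-Fas lpr/lpr (LPR, 3 mice), the same strain homozygous for the lpr mutation of Fas. Fas is the death receptor through which activated lymphocytes are removed, its lpr allele is carried in every cell of the animal, and these mice accumulate lymphocytes and develop a lupus-like nephritis. The study used the arrays to find genes that accompany the formation of lymphoid tissue around the vessels of the kidney.

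MHC class I shows peptides from inside the cell to CD8+ T cells. The peptides are cut by the proteasome, pumped into the endoplasmic reticulum by the transporter TAP, and fitted by tapasin into a heavy chain that is held by beta-2 microglobulin. Interferon gamma replaces the 3 catalytic subunits of the constitutive proteasome by their inducible counterparts, which makes the immunoproteasome, and it raises the PA28 activator that caps it. Nearly all nucleated cells carry class I, and leukocytes hold more of it and of the immunoproteasome than kidney epithelium does at rest.

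The probes of an inducible subunit and of its constitutive counterpart can lie in the same stretch of the 2 related genes. Because the results below compare such genes, 2 such pairs of probes are shown. The Psmb6 probe shown is a dimmer one of that gene, and the comparison with Psmb9 below uses its brightest probe. Capitals mark the bases that are identical when the 2 probes of a pair are set side by side without gaps, in lines that read from 5′ to 3′ along the transcript, with mm9 as the build.
Psmb8 (chr17:34337771-34337830, plus strand): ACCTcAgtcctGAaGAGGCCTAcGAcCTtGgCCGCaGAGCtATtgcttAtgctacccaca
Psmb5 (chr14:55233161-55233220, minus strand): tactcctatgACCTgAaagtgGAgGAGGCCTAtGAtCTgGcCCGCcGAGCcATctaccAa
Psmb9 (chr17:34319174-34319233, minus strand): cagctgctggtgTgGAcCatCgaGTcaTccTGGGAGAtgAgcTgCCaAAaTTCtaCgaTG
Psmb6 (chr11:70341014-70341073, plus strand): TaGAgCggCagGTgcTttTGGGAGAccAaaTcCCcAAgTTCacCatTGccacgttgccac
In the pair of Psmb8 and Psmb5, 31 of 50 overlapping bases (62.0%) were identical, and in that of Psmb9 and Psmb6 27 of 48 (56.2%). The probes of the first gene of each pair rose in LPR, while those of the second were not called, as given below with their values.

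All values are log2 of the background-subtracted signal minus the 75th percentile of the same array, so 0 is the brightness of a spot at that percentile. A difference of 1 is a doubling of signal. A probe was tested where at least 3 of the 6 arrays were well above background by the scanner's flag, and a probe or gene is called where limma's p, adjusted by Benjamini-Hochberg over all 39918 tested probes, was under 0.05. Over all probes 6.53% were called higher in LPR and 6.15% lower, with a median log2 change of -0.14. No spot was saturated, and over probes the arrays of different groups correlated at r = 0.961 to 0.971, each below the arrays of 1 group, which reached 0.993. Fas, the mutated gene, gave no clear check of the labels: its brighter probe read -0.37, -0.28 and -0.06 in MRL and -0.49, -1.25 and -0.37 in LPR (log2 change -0.47, adjusted p = 0.234). The dimmer Fas probe was above background on the LPR arrays alone, at least 1.79-fold higher there (adjusted p = 0.0338). Ifng and most of the T cell and plasma cell markers listed were higher on the arrays labelled LPR, as given below with the other lists. Because the lists were chosen with earlier results of these data known, this is no independent check of the labels.

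All 9 members that have a probe were higher in LPR by the limma test, and none was lower, at the adjusted threshold or at an unadjusted p under 0.05. Each is represented by the brightest of its tested probes. Among the 25800 genes tested the same way, 7.12% were called higher and 5.45% lower. Of the 15 member probes, all passed the filter on dim signals, 13 of them well above background on all 6 arrays, and 14 were called higher. The log2 changes of the 9 members ran from 0.63 to 4.01, with a median of 2.02, beside a median of -0.12 over all tested genes. In each of the 9, the 3 LPR kidneys lay above the 3 MRL kidneys, a separation that 11.7% of all tested genes showed upwards and 25.6% downwards. A kidney holds many cell types, so more cells of a type and more RNA per cell cannot be told apart in these values.

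**Figure D1:**
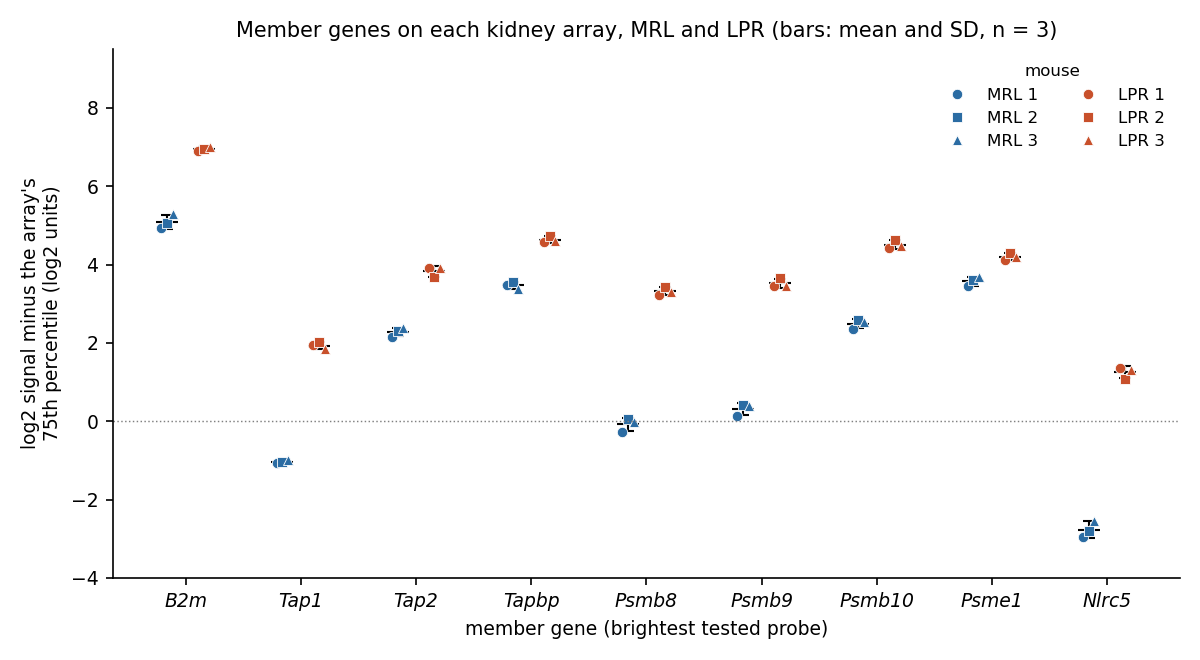
Log2 signal of each member gene (brightest tested probe), relative to the 75th percentile of the array, with 1 point per mouse and the mean ± SD of the 3 mice of each group. The LPR points lie above the MRL points for all 9 genes, closest together for Psme1 and farthest apart for Nlrc5, and heights of different genes cannot be compared because each probe has its own brightness.

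The light chain and both chains of the TAP transporter rose, Tap1 by 7.77-fold, B2m by 3.65-fold and Tap2 by 2.93-fold. B2m encodes beta-2 microglobulin, the light chain of every class I molecule. Its brightest probe (chr2:121978401-121978460) read 4.92, 5.05 and 5.28 in the 3 MRL kidneys and 6.91, 6.95 and 7.0 in the 3 LPR kidneys. The LPR kidneys stood within 0.08 of each other and well above all MRL kidneys, a 3.65-fold rise (log2 change 1.87, SE 0.12, adjusted p = 0.000148). A dimmer B2m probe rose by 1.89 on the log2 scale (adjusted p = 0.000538).

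Tap1 and Tap2 encode the 2 chains of the transporter that carries peptides into the endoplasmic reticulum. For Tap1 (chr17:34334022-34334081) the values were -1.06, -1.04 and -1.0 in MRL and 1.94, 2.01 and 1.83 in LPR. The MRL kidneys lay within 0.06 of each other and the LPR kidneys far above them, a 7.77-fold rise (log2 change 2.96, SE 0.10, adjusted p = 1.34e-05). A dimmer Tap1 probe, on which MRL 3 was lowest of an MRL range of 1.21, rose by 3.82 on the log2 scale (SE 0.32, adjusted p = 0.000419). For Tap2 (chr17:34353116-34353175) the values were 2.16, 2.29 and 2.37 in MRL and 3.90, 3.68 and 3.90 in LPR. The groups were apart by 1.30 and the rise was 2.93-fold (log2 change 1.55, SE 0.12, adjusted p = 0.000283). The second Tap2 probe (chr17:34341478-34341537) is the only member probe that was not called: it read -6.23, -5.45 and -5.47 in MRL and -5.03, -5.48 and -5.61 in LPR. Its groups overlapped, it was well above background on 2 of the 3 MRL arrays, and its log2 change of 0.34 had a 95% interval of -0.26 to 0.94 (adjusted p = 0.400).

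Tapbp encodes tapasin, which tethers the empty class I molecule to TAP. Its brightest probe (chr17:34066022-34066081) read 3.47, 3.57 and 3.38 in MRL and 4.57, 4.73 and 4.61 in LPR. All LPR kidneys were higher by at least 1.00, and the fitted rise was 2.25-fold (log2 change 1.17, SE 0.11, adjusted p = 0.000683). The other Tapbp probe gave a log2 change of 1.08 (adjusted p = 0.00158).

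All 3 inducible catalytic subunits rose, Psmb8 by 10.6-fold, Psmb9 by 9.27-fold and Psmb10 by 4.05-fold, and the activator gene Psme1 had the smallest change of the 9 members. Psmb8 encodes beta5i (LMP7), the inducible subunit with chymotrypsin-like activity. It read -0.28, 0.05 and -0.02 in MRL and 3.23, 3.42 and 3.31 in LPR. The gap between the groups was 3.18, and the rise was 10.6-fold (log2 change 3.40, SE 0.13, adjusted p = 1.58e-05). Psmb9 encodes beta1i (LMP2), the partner that replaces the caspase-like subunit. The probe shown above read 0.13, 0.42 and 0.38 in MRL and 3.46, 3.65 and 3.46 in LPR, again with no overlap, a 9.27-fold rise (log2 change 3.21, SE 0.13, adjusted p = 1.84e-05). A second Psmb9 probe (chr17:34322762-34322821), which represents another transcript by its Ensembl identifier, was not well above background on any MRL array, and it was at least 2.12-fold higher in LPR (adjusted p = 0.00400).

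Psmb10 encodes beta2i (MECL-1), the inducible counterpart of the trypsin-like subunit. It read 2.36, 2.58 and 2.53 in MRL and 4.41, 4.64 and 4.49 in LPR (chr8:108459677-108459736). The LPR kidneys lay above MRL by at least 1.83, and the rise was 4.05-fold (log2 change 2.02, SE 0.12, adjusted p = 8.41e-05). Psme1 encodes PA28 alpha, a chain of the ring that caps the proteasome and speeds the release of peptides. It read 3.45, 3.60 and 3.68 in MRL and 4.12, 4.30 and 4.19 in LPR (chr14:56200194-56200253). The groups were apart by 0.44, and the rise was 1.55-fold (log2 change 0.63, SE 0.11, adjusted p = 0.0140). This call was lost without MRL 1, without MRL 2 or without LPR 3, where the adjusted p reached 0.0544 with log2 changes of 0.57 to 0.64. PA28 beta, the other chain of the ring, is encoded by Psme2, and no probe carries that name. The 2 probes named Psme2b, a related gene on chromosome 11, also list the RefSeq transcripts of Psme2, so the 2 genes cannot be told apart on them. They were looked at only after the values were seen, and are not counted among the members. The brighter of them read 4.38, 4.65 and 4.71 in MRL and 5.43, 5.53 and 5.58 in LPR, with no overlap. The 2 probes rose by 0.93 and 0.99 on the log2 scale (adjusted p = 0.00389 and 0.00293).

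Nlrc5 showed the largest change of the members where the brightest probe stands for each gene. With its 2 probes averaged its log2 change was 3.01, below those of Psmb8 and Tap1. It encodes a NOD-like protein that acts in the nucleus as the transactivator of class I genes, B2m, Tap1 and Psmb9 among them. Its brightest probe (chr8:97051105-97051164) read -2.96, -2.80 and -2.54 in MRL and 1.36, 1.07 and 1.31 in LPR. The MRL kidneys lay below the array's 75th percentile and the LPR kidneys above it, a 16.2-fold rise with a 95% interval of 12.7 to 20.6 (log2 change 4.01, SE 0.15, adjusted p = 1.53e-05). The second Nlrc5 probe covers 60 transcript bases that are placed across 147 genomic bases (chr8:97030478-97030624, mm9, plus strand), more than its length, and it is shown because it gave a smaller rise.
Nlrc5, second probe: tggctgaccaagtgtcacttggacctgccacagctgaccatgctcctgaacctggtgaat
It read -5.54, -5.76 and -5.41 in MRL and -3.50, -3.61 and -3.60 in LPR. The groups did not overlap, and the rise was 4.01-fold (log2 change 2.00, SE 0.12, adjusted p = 0.000110).

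**Figure D2:**
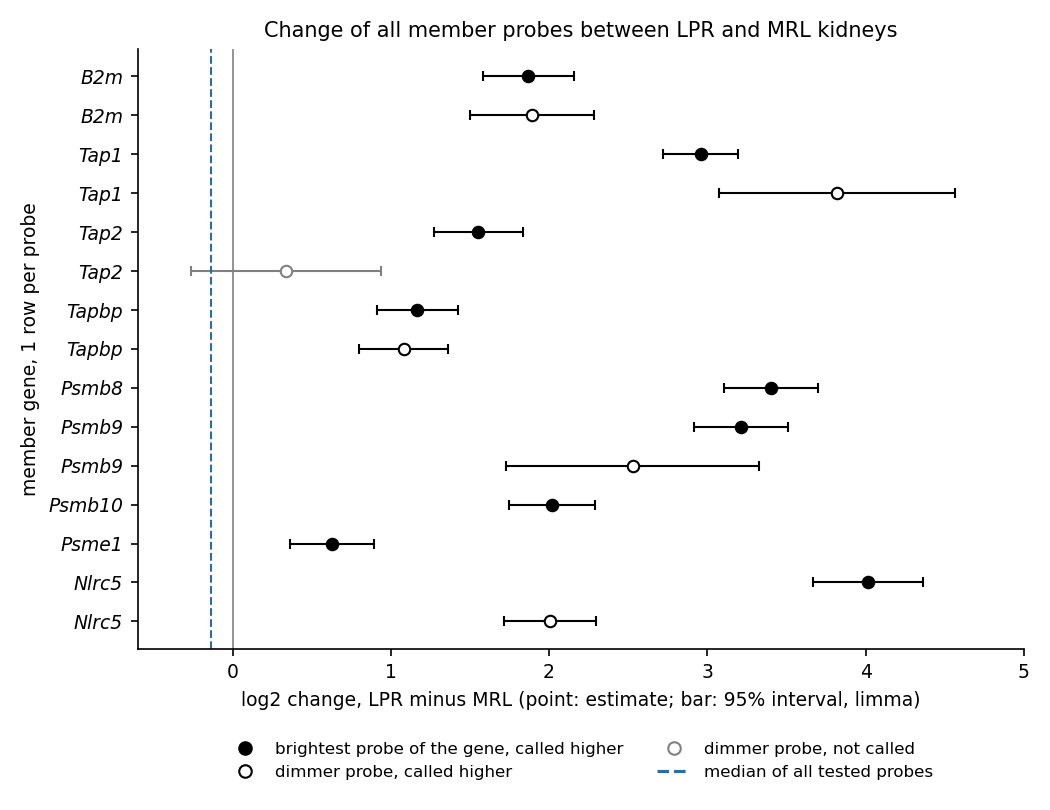
Log2 change between LPR and MRL for the 15 member probes, with the estimate and 95% interval from limma, filled points for the brightest probe of a gene and open points for dimmer probes. All but the dimmer Tap2 probe lie clear of 0, from 0.63 for Psme1 to 4.01 for Nlrc5, and the dashed line is the median of all tested probes at -0.14.

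Of the 6 members with 2 probes, B2m and Tapbp gave close changes on both. In Nlrc5, Tap2 and Tap1 the difference between the 2 probes separated the LPR from the MRL kidneys. It was 2.01 on the log2 scale for Nlrc5, 1.21 for Tap2 and -0.86 for Tap1, as brighter minus dimmer probe (exact two-sided permutation p = 0.1 each, adjusted p = 0.2 over the 6 genes, and 0.1 is the smallest p that 3 against 3 mice can give). In Psmb9 the 2 probes differed by 0.68 and the groups overlapped (exact permutation p = 0.2). The dimmer Psmb9 probe was not well above background on any MRL array, so this difference is uncertain. The direction was the same on both probes of each gene, and the dimmer Tap2 probe was not called.

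On the brightest probes, the order of the changes was Nlrc5, Psmb8, Psmb9, Tap1, Psmb10, B2m, Tap2, Tapbp and Psme1. The order depended on the probes used. With the tested probes of a gene averaged it was Psmb8 (3.40), Tap1 (3.39), Nlrc5 (3.01), Psmb9 (2.87), Psmb10 (2.02), B2m (1.88), Tapbp (1.12), Tap2 (0.95) and Psme1 (0.63), and all 9 stayed called. The average of Psmb9 includes a probe that was not well above background on any MRL array. Neighbours in the first order were set against each other within each array, where the scaling of the array cancels. Because these pairs were taken from the observed order, their differences are given as a description, with no test. Psmb10 and B2m differed by 0.15 (95% interval -0.14 to 0.44) and Tap2 and Tapbp by 0.39 (-0.05 to 0.82), and in both the groups overlapped. The other 6 of the 8 neighbouring pairs did not overlap between the groups. By the brightest probe, among all 25800 tested genes, ranked by their rise, Nlrc5 stood at place 253, Psmb8 at 348, Psmb9 at 397 and Tap1 at 469. Psmb10 stood at 764, B2m at 831, Tap2 at 970, Tapbp at 1240 and Psme1 at 2006.

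On the brightest probe of each member, the mice of a group differed little. The SD of a member within a group was then 0.03 to 0.21 log2 units, with a median of 0.11. Some dimmer probes spread more, up to an SD of 0.68 for Tap1 in MRL. The counts that follow are also from the brightest probes. LPR 2 had the highest value of the LPR kidneys in 6 of the 9 members, and LPR 1 the lowest in 5. MRL 1 had the lowest value of the MRL kidneys in 8 of 9. The 3 MRL arrays and LPR 1 sat in the first position column of the slide and LPR 2 and LPR 3 in the second. Within the first column, LPR 1 exceeded the MRL mean by 0.54 for Psme1 to 4.13 for Nlrc5. The fit with the column as a block gave the same changes, since it too takes them from LPR 1 alone, so both rest on 1 LPR mouse and on a spread borrowed from the other arrays. Read with that limit, 8 of the 9 members were called in both, and Psme1 was not (adjusted p = 0.137 within the column and 0.128 with the block).

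None of the constitutive counterparts of the inducible subunits was called. The constitutive beta5, beta1 and beta2 subunits are encoded by Psmb5, Psmb6 and Psmb7, and Psme3 encodes PA28 gamma, which forms the related ring found in the nucleus. Psmb5 read 3.51, 3.65 and 3.59 in MRL and 3.30, 3.61 and 3.41 in LPR, overlapping, with a log2 change of -0.15 (adjusted p = 0.436). The changes of Psmb6 and Psmb7 were -0.08 and 0.00 (adjusted p = 0.680 and 0.994), and that of the dimmer Psmb6 probe shown above was -0.09. Psme3 read 1.47, 1.70 and 1.63 in MRL and 1.03, 1.43 and 1.14 in LPR, lower in all LPR kidneys but not called (log2 change -0.40, adjusted p = 0.108).

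The difference between an inducible gene and its counterpart, or the related Psme3 in the case of Psme1, was formed in each array for 4 pairs. Psmb8 relative to Psmb5 was higher in LPR by 3.55 on the log2 scale (SE 0.07, 95% interval 3.36 to 3.74), an 11.7-fold shift. Psmb9 relative to Psmb6 shifted by 3.29 (SE 0.06, 3.14 to 3.44), and Psmb10 relative to Psmb7 by 2.02 (SE 0.04, 1.90 to 2.13). Psme1 relative to Psme3 shifted by 1.03 (SE 0.08, 0.80 to 1.26), and 0.40 of this came from the lower Psme3. In all 4 pairs the LPR kidneys lay beyond every MRL kidney, with exact two-sided permutation p = 0.1 each and 0.1 after adjustment over the pairs, the smallest value this design allows.

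**Figure D3:**
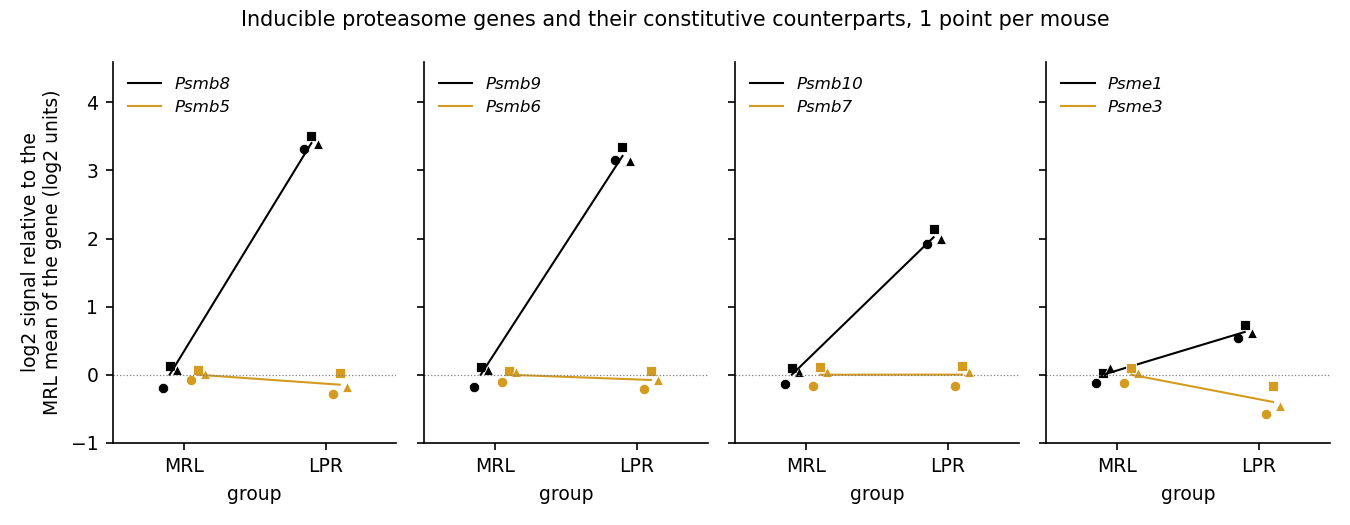
Log2 signal of each inducible gene (black) and its constitutive counterpart or, for Psme1, the related Psme3 (yellow), each relative to its own MRL mean. Each mouse is 1 point (circle, square and triangle for mice 1, 2 and 3 of a group), and lines join the group means. Psmb8, Psmb9 and Psmb10 rise by 2.02 to 3.40 while Psmb5, Psmb6 and Psmb7 stay between -0.15 and 0.00; in the last panel Psme1 rises by 0.63 and Psme3 reads lower by 0.40, which was not called.

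No other proteasome gene of the lists was called either. The list of the constitutive 20S core also takes in Psma8, which is not a constitutive subunit. Of its 15 tested genes, none was called in either direction, at the adjusted threshold or at an unadjusted limma p under 0.05. Their changes ran from -0.15 to 0.23. Of 21 genes of the 19S regulator, the lid and base that receive ubiquitinated proteins, none was called at either threshold, with changes from -0.21 to 0.07. Of 8 other activators, inhibitors and assembly factors none was called, and Psme3 and Psme4 were lower at an unadjusted p under 0.05. Psme4 encodes the activator PA200, and its brightest probe read lower by 0.38 on the log2 scale (adjusted p = 0.102), while 1 of its dimmer probes was called lower, by a log2 change of -0.59 (adjusted p = 0.0378). The medians of these 3 lists were 0.04, -0.07 and -0.02, beside -0.12 over all tested genes.

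The class I heavy chains, the partners of B2m, rose in most of the genes tested. Of 23 heavy chain and class I-like genes listed, 22 are on the array and 20 were tested. Of these, 16 were called higher and none lower, beside 7.12% of all tested genes called higher. The median log2 change was 2.60, and H2-T3 was lower at an unadjusted limma p under 0.05. H2-K1, a classical heavy chain, read 4.27, 4.52 and 4.54 in MRL and 7.23, 7.37 and 7.33 in LPR. All LPR kidneys were above all MRL kidneys, a 7.29-fold rise (log2 change 2.87, adjusted p = 2.18e-05). H2-D1, the other classical heavy chain here, rose by 3.35, and the brighter H2-Bl probe by 3.24. By the brightest probe of each gene, these were the 2 largest changes in the list. That H2-Bl probe has no position in mm9, and the H2-Bl probe that is placed on chromosome 17 changed by -0.06 with overlapping groups (adjusted p = 0.790), so the 2 probes of this gene disagree. Probes of other heavy chains differed too. H2-M2 rose by 2.84 on its brightest probe and by 4.72 on a dimmer one. H2-Q10 rose by 3.03 on its brightest probe and by 2.27 on a dimmer one. Its other probes changed by 0.11 and -0.28 and were not called. Because these genes are close copies of each other, a probe can bind the transcript of a neighbour, and the changes of single heavy chains are uncertain. For the same reason the 16 called genes may not be separate results.

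Of 10 genes listed around peptide trimming and loading in the endoplasmic reticulum, 2 were called higher and none lower at either threshold. This list also takes in genes with wider roles, such as Lnpep, Sec61a1 and Bcap31, and its median was 0.06. Tapbpl, which encodes the tapasin-related editor TAPBPR, read -1.96, -1.96 and -1.88 in MRL and -0.06, 0.06 and 0.10 in LPR. These did not overlap, and the rise was 3.90-fold (log2 change 1.97, adjusted p = 5.48e-05). Erap1, the aminopeptidase that trims peptides to length, rose by 0.66 (adjusted p = 0.0454), and this call was lost in 5 of the 6 fits that left out 1 mouse, all but the one without LPR 2. The chaperones of the loading complex, Calr, Canx and Pdia3, changed by 0.07, -0.13 and -0.11 and were not called (adjusted p = 0.752, 0.433 and 0.493).

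The regulators were mixed. Of 25 transcription factors of class I genes and genes of interferon gamma signalling, 10 were called higher and none lower (Nfyc was lower at an unadjusted limma p under 0.05), with a median of 0.29. Ifng, the cytokine itself, read -7.94, -6.64 and -6.36 in MRL and -1.85, -1.98 and -1.91 in LPR. No MRL array was well above background, and the LPR level was at least 19.4-fold higher (adjusted p = 0.000276). Ciita, the class II counterpart of Nlrc5, rose by 3.46 on the log2 scale (adjusted p = 3.44e-05), the next largest change in the list. Irf1, an interferon-induced factor that binds class I promoters, rose by 2.44 (adjusted p = 7.15e-05). Rfx5, a subunit of the complex that Nlrc5 joins on DNA, changed by 0.10 and its groups overlapped (adjusted p = 0.745).

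**Figure D4:**
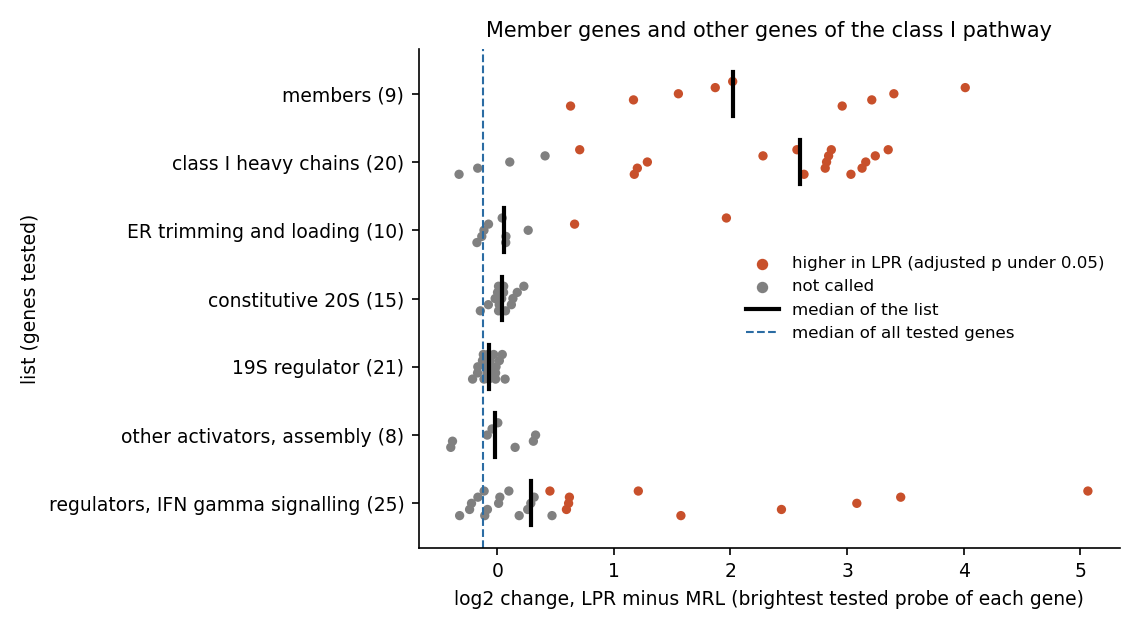
Log2 change between LPR and MRL for the 9 members and for the tested genes of 6 further lists of the class I pathway, with 1 point per gene, a black bar at the median of each list and a dashed line at the median of all tested genes, -0.12. Called genes (orange) fill the members and most of the heavy chains, whose medians are 2.02 and 2.60, and the constitutive 20S and 19S lists hold none.

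Many of the leukocyte markers listed were higher in LPR, with exceptions. In the 7 lists of leukocyte markers, 8 of 9 T cell, 3 of 6 B cell (and 1 of them lower) and 4 of 5 plasma cell genes were higher, and so were 8 of 10 macrophage and dendritic cell, 2 of 3 natural killer, 2 of 5 neutrophil and 3 of 4 general leukocyte genes. Blk, Klrb1c and Klre1 did not pass the filter on dim signals. Summed over its tested genes as signal divided by the array's 75th percentile, the T cell list was 2.97 to 3.46 in MRL and 14.8 to 17.3 in LPR. The general leukocyte list was 3.52 to 4.35 in MRL and 12.9 to 14.2 in LPR. Brighter lists shifted by smaller factors: the plasma cell list was 31.4 to 46.1 in MRL and 78.0 to 148 in LPR. The macrophage and dendritic cell list was 27.7 to 35.4 in MRL and 43.7 to 48.1 in LPR. Among T cell genes, Cd3g rose by 4.15 and Cd8b1 by 1.93 on the log2 scale, whereas Cd8a changed by 0.02 (adjusted p = 0.912). Ptprc, of the general leukocyte list, changed by 0.39 and was not called (adjusted p = 0.137). The B cell gene called lower was Ms4a1, with a log2 change of -0.70 (adjusted p = 0.0497). The kidney's own markers were bright: the proximal tubule list summed to 498 to 547 in MRL and 370 to 420 in LPR, with 3 of its 7 genes lower and none higher. Of the endothelial genes 1 of 5 was lower, and podocyte, collecting duct and distal tubule lists had no call in either direction. The part of cell makeup in the rise of the members was not tested.

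Over the 6 arrays, other genes followed the members closely. The log2 values of the 9 members were standardized and averaged, and 23148 genes outside the lists, well above background on all arrays, were compared with this average. The 5 nearest were Selplg (r = 0.9996), H2-Eb1, Il4i1, H2-DMb1 and Map4k1 (r = 0.9991), and 265 genes had r above 0.99. The members themselves had r from 0.981 to 1.000, and all of these values share the same 6 points, in 2 groups of 3 that lie apart.

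Of the members, 4 are neighbours inside the MHC. In the RefSeq annotation (GRCm38.p6) Psmb9, Tap1, Psmb8 and Tap2 follow each other on chromosome 17 with no other protein-coding gene between them, and their 7 probes lie within 34.0 kb in mm9. Their changes in that order were 3.21, 2.96, 3.40 and 1.55. The protein-coding genes on either side belong to class II: H2-DMb1 next to Psmb9 rose by 3.48 (adjusted p = 1.26e-05) and H2-Ob next to Tap2 by 1.86 (adjusted p = 9.72e-05). Tapbp lies on the same chromosome, Psmb10 and Nlrc5 on chromosome 8, Psme1 on chromosome 14 and B2m on chromosome 2.

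Psmb9 and Tap1 start from the same 225 bases and are read in opposite directions. This stretch is shown because both genes rose in LPR, and capitals mark the searched motifs found in it. On the brightest probes Psmb9 rose by 3.21 and Tap1 by 2.96. With the probes of a gene averaged the order was reversed, at 2.87 for Psmb9 and 3.39 for Tap1. The dimmer Psmb9 probe in that average was not well above background on any MRL array, so the reversed order is uncertain. Psmb8, which does not start from this stretch, rose by 3.40. Any link between the shared start and these changes was not tested.
Psmb9 and Tap1, shared start region (RefSeq, GRCm38.p6, chr17:34187331-34187555, plus strand, Psmb9 to the left and Tap1 to the right): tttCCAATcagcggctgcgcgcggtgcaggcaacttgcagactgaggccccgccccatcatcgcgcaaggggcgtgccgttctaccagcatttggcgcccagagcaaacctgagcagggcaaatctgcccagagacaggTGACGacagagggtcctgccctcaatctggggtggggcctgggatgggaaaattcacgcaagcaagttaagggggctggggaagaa
B2m, 250 bases before its start (RefSeq, GRCm38.p6, chr2:122147437-122147686, plus strand): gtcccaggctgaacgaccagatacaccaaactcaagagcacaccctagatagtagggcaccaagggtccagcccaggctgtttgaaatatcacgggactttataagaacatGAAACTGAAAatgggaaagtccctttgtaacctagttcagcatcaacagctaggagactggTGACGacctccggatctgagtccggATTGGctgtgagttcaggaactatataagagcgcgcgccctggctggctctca
The stretch of B2m is shown because this member lies outside the MHC and its window holds 3 of the 4 searched motifs. From left to right its capitals mark an interferon-stimulated response element, a TGACG and a Y box read from the other strand. In the shared stretch they mark a Y box and a TGACG.

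The 4 motifs were searched on both strands of the 300-base windows that run from 250 bases before to 50 after each start. A window was found for 8 of the 10 members, and Nlrc5 and Tap2 were not matched. The core of the interferon-stimulated response element, a pair of GAAA separated by any 2 bases, occurred in B2m and Psme1, and in 3.44% of all 32851 windows. The gamma-activated site, TTC and GAA separated by any 3 bases, occurred in Psmb8 and in 8.30% of all windows. The Y box CCAAT occurred in B2m, Psmb9, Tap1 and Tapbp and in 37.4% of all windows. TGACG, part of the cAMP response element and the core of the X2 box of class I promoters, occurred in B2m, Psmb9, Tap1 and Psme2 and in 20.8% of all windows. Psmb9 and Tap1 share their matches because their windows overlap. Psmb10 held none of the 4, and its change of 2.02 lay between those of Tap1 and B2m. These matches describe the letters of the windows and were not tested against the changes.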

How the data were processed

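Per the file headers, the kidney RNA of each mouse was labelled with 1 dye and hybridised to 1 array of a single slide of 60-base probes placed on mm9, and the authors read intensities with Feature Extraction 12.0.3.1, which subtracted the background and detrended the signal within the array. The labels name a column kit for the RNA and the methods name Trizol. The authors also deposited these intensities divided by about the 75th percentile of the array, which served as an alternative. Here, control spots and outlier spots were left out (73 to 90 per array), log2 intensities were taken with no pseudocount, the 75th percentile of the array (706 to 942) was subtracted and spots of 1 probe were averaged. Of 56605 probes, the 39918 well above background on at least 3 of 6 arrays entered limma 3.58.1 (R 4.3.3), and p-values were adjusted over all of them by Benjamini-Hochberg, with a threshold of 0.05. Arrays have no read depth, and their number, 3 per group, limits the precision.

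The brightest tested probe stands for a gene. A probe above background on no MRL array has only a lower bound, set against the lowest signal above background on each array or its own value if higher. Pairs of genes were compared per array by exact permutation tests over mice in Python 3.11.15. Motifs were searched in RefSeq windows (GRCm38.p6), and 13 of the 15 member probes had an accession that RefSeq lists, each under the same symbol. The members and lists were chosen with earlier results of these data known. Named genes are all members, Fas, a fixed choice from each pathway list with its 2 largest rises, and the 5 genes nearest to the members over the 6 arrays; 1 of the fixed choice is not reported here. Alternatives were the background correction, scaling, filter, floor, outlier spots, variance trend, slide column, replicate block, probe summary, the methods' test, the deposited scaled values and leaving out each mouse. The step was tested on simulated data in which 200 of 39918 probes were changed. It recovered 141 of them, 85 at a log2 change of 2 and 56 at 1, with 11 false calls. A gene that was not called may therefore still have changed. Far fewer probes were changed in the simulation than the 2605 higher and 2454 lower called in the data. Its rates need not hold for the data.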

Additional observations from a re-analysis of the deposited data

How the results depend on the processing

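All 9 members stayed higher in LPR under each of the 24 alternatives, and 211 of 216 member values stayed past the threshold. The other 5 were Psme1, at 0.54 with the slide column as a block and within the first column, 0.57 without MRL 1, 0.64 without MRL 2 and 0.63 without LPR 3, so 8 or 9 members were called. The median member change ran from 1.92 to 2.07, and leaving out 1 mouse gave 1.95 to 2.07. The replicate numbers were not used as pairs in the main fit. The deviations of same-numbered arrays correlated at 0.12, 0.02 and 0.01, and those of other combinations at -0.07 to 0.05. Such values cannot exclude a pairing of the mice. With the replicate block, all 9 members stayed called, 2199 probes were higher, 1117 were lower and 1 gene of the endoplasmic reticulum list was higher.

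The background counts moved more, from 2605 higher and 2454 lower. With normexp background correction 2540 probes were higher and 4446 lower, 1 gene of the other activators and assembly list was lower, and the shifts of Psmb8 against Psmb5 and Psmb9 against Psmb6 were 3.43 and 3.19. Without a filter on dim probes 2150 were higher and 1092 lower. The slide column as a block gave 1458 and 463, and within the first column, with 1 LPR array assumed to vary like the others, 1116 and 315. Psmb10 against Psmb7 shifted by 2.08 in both, and 5 regulators were higher within the column. After Benjamini-Hochberg the methods' test, 2-tailed, called 1736 and 1385 on log2 values and 1444 and 1353 on linear values. In these 5 settings 1 endoplasmic reticulum gene was higher. Unadjusted, that test called 7175 lower on log2 and 7384 on linear values, and on both 1 heavy chain gene and 1 gene of the 19S list lower, 1 of the 20S list higher, and 2 other activators and 2 regulators lower. With all tested probes of a gene averaged, Nlrc5 rose by 3.01 (from 4.01) and Tap2 by 0.95 (from 1.55), and Psmb9 against Psmb6 shifted by 2.95 and Psme1 against Psme3 by 0.89. Leaving out 1 mouse gave 760 (without MRL 2) to 2269 lower probes (without LPR 2), and 839 without MRL 1, 826 without MRL 3, 1503 without LPR 1 and 901 without LPR 3. It gave 1 to 2 endoplasmic reticulum genes higher and 0 to 1 other activators lower. The cause of these moves was not tested. Over 5 scalings the median change of all probes stayed between -0.14 and -0.11. Signals near the background limit the dimmer Tap2 probe, and in MRL the dimmer Psmb9 and Nlrc5 probes and Ifng.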
